A study of Mus musculus with 18 samples.

Results

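The genes described here are 10 regulators of cell cycle entry: the Ink4 inhibitors Cdkn2a, Cdkn2b and Cdkn2c, the Cip/Kip inhibitors Cdkn1a, Cdkn1b and Cdkn1c, the tumour suppressors Trp53 and Rb1, the p53 ligase Mdm2, and cyclin D1 (Ccnd1). They were chosen by name, and all 10 were found by symbol among 55416 gene IDs, each as 1 row of counts. All 10 passed the filter on low counts, which left 17174 genes for testing. Poly(A)+ RNA was sequenced in bulk from the peritumoral area of 18 brains with metastases, 6 in each of 3 models, sampled 10 days after 40000 tumour cells were injected. Melanoma brains carried B16-F10-BrM4, derived from B16-F10 melanoma. Breast brains carried EO771-BrM3, derived from EO771 mammary carcinoma, and lung brains carried the lung cancer line 482N1. The labels give the genotype of all 3 groups as WT and name no strain, age or sex. Each model is 1 cell line, and no tumour-free brain was among the samples, so every comparison is between models.

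Cyclin D1 with Cdk4 or Cdk6 phosphorylates Rb1, which then releases E2F transcription factors and lets a cell enter S phase. Ink4 proteins bind Cdk4 and Cdk6 and block this step, while Cip/Kip proteins bind cyclin-Cdk complexes more widely. Cdkn2a also encodes Arf from a second promoter and reading frame, and Arf restrains Mdm2, which marks p53 for destruction. The p53 protein in turn induces Cdkn1a and Mdm2. The Ink4 locus is silenced by Polycomb in most normal tissue, and B16 melanoma lines are known to lack intact Cdkn2a. Gene-level counts do not separate the Ink4a and Arf transcripts of Cdkn2a.

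Sequences are shown for the 3 start sites of the Ink4 locus, because Cdkn2a and Cdkn2b had the largest differences among the members. The windows run from 250 bases before to 50 bases after each start site and come from RefSeq on GRCm38.p6, all on the minus strand of chromosome 4. Capitals mark GC boxes (GGGCGG, either strand) and the E2F motif (TTTCCCGC, either strand). The Arf start lies 12427 bases upstream of the Ink4a start, and the Cdkn2b start lies 16413 bases further upstream.
Cdkn2b, chr4:89310983-89311282: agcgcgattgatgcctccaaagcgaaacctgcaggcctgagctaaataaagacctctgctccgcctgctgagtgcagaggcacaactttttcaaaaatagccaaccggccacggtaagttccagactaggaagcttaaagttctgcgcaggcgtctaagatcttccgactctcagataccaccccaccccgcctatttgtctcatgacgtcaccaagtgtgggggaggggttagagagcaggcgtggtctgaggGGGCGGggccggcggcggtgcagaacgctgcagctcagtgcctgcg
Cdkn2a, Arf start, chr4:89294570-89294869: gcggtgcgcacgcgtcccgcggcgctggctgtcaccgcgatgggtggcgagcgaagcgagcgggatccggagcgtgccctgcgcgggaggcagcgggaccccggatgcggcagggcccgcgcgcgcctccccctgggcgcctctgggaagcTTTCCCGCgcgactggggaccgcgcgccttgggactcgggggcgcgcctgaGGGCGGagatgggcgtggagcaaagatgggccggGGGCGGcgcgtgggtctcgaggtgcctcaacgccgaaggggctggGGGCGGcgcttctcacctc
Cdkn2a, Ink4a start, chr4:89282143-89282442: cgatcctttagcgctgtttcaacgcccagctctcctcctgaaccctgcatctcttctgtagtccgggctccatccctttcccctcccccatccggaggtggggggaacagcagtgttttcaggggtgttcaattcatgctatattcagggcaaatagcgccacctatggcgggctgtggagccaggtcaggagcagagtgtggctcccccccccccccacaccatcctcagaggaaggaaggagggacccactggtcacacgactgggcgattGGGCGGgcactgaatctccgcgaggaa
The Cdkn2b and Ink4a windows each held 1 GC box and the Arf window held 3, and 35.7% of 32851 promoters of this length held at least 1. The E2F motif was in the Arf window, and 1.07% of all promoters held it. No AP-1 motif (TGANTCA, in 7.81% of promoters) or TATA box (TATAAA, in 13.6%) was in these 3 windows. The GC content was 57.7% for Cdkn2b, 77.0% for Arf and 60.3% for Ink4a, against a mean of 53.8% over all promoters. RefSeq windows matched 7 of the 10 members. Cdkn1c, Rb1 and Ccnd1 had no entry.

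Library totals were 10669355 to 13396710 counts for melanoma, 7366250 to 13544054 for breast and 12070005 to 14533877 for lung. In 1 library, 3 counts stand for 0.206 to 0.407 CPM (counts scaled to library size), taken as the floor, which covers counting error only. The 8 melanocyte genes took 0.381% to 2.38% of reads in the melanoma libraries, 0.00136% to 0.00208% in breast and 0.00106% to 0.00127% in lung. The 7 epithelial genes took 0.000471% to 0.000576% in melanoma, 0.00659% to 0.0162% in breast and 0.0308% to 0.134% in lung, and of these Cldn4 had no read in melanoma or breast. Melanocyte RNA was thus read in tissue labelled as peritumoral, and the cell source of each member's RNA was not tested. Oligodendrocyte genes took 0.374% to 0.639% of reads over all 18 libraries, and neuronal genes 0.186% to 0.442%, although of that list Tubb3 had no read. In melanoma replicate 3 and breast replicates 18 and 19, log2 CPM changed by -0.261, -0.284 and -0.227 for each doubling of transcript length, so that long transcripts were under-represented. The other 15 libraries ran from -0.127 to 0.197.

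Cdkn2a, Cdkn2b and Ccnd1 were lower and Cdkn2c and Trp53 higher in both melanoma and breast libraries than in lung libraries. Cdkn1a, Cdkn1b, Cdkn1c and Rb1 passed no test, and Mdm2 was called higher in breast than in both other models. In 18 fits without 1 library each, the breast call of Mdm2 was lost in 5 against lung and in 10 against melanoma. The Ccnd1 call in breast against lung was lost in 6 of the 18. By edgeR's quasi-likelihood test with Benjamini-Hochberg adjustment over all 17174 genes, 6 of the 10 differed among the 3 models, where 35.8% of all genes did. Against lung, 2 members were higher and 3 lower in melanoma, where 8.51% of all genes were higher and 14.7% lower. In breast against lung, 3 were higher and 3 lower, where 11.2% of all genes were higher and 7.16% lower. In melanoma against breast 4 of 10 were called, all lower. Among them were Cdkn2a at a few reads per library and Cdkn2b, also at low counts. Cdkn2a passed the filter on low counts only through the lung libraries. With only the 12 libraries compared it was not tested, and 2 members were called. In the fit of all 18 libraries 28.9% of all genes were called in melanoma against breast, 19.2% lower and 9.76% higher. No member was higher there at an unadjusted p under 0.05 by edgeR. Called in either direction were 23.2% of all genes in melanoma against lung and 18.3% in breast against lung. The ranges of the 6 libraries lay apart for 4 members in melanoma against lung, for 4 in breast against lung and for 1 in melanoma against breast, where 14.3%, 14.9% and 17.1% of all genes did. The median log2 fold change of the 10 members was -0.01, -0.01 and -0.40 in these 3 comparisons, against 0.02, -0.02 and 0.04 over all genes tested. The 10 genes were picked with earlier results of these data known, so these shares describe the 10 genes and no more. The comparisons share libraries: each model enters 2 of the 3.

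**Figure D1:**
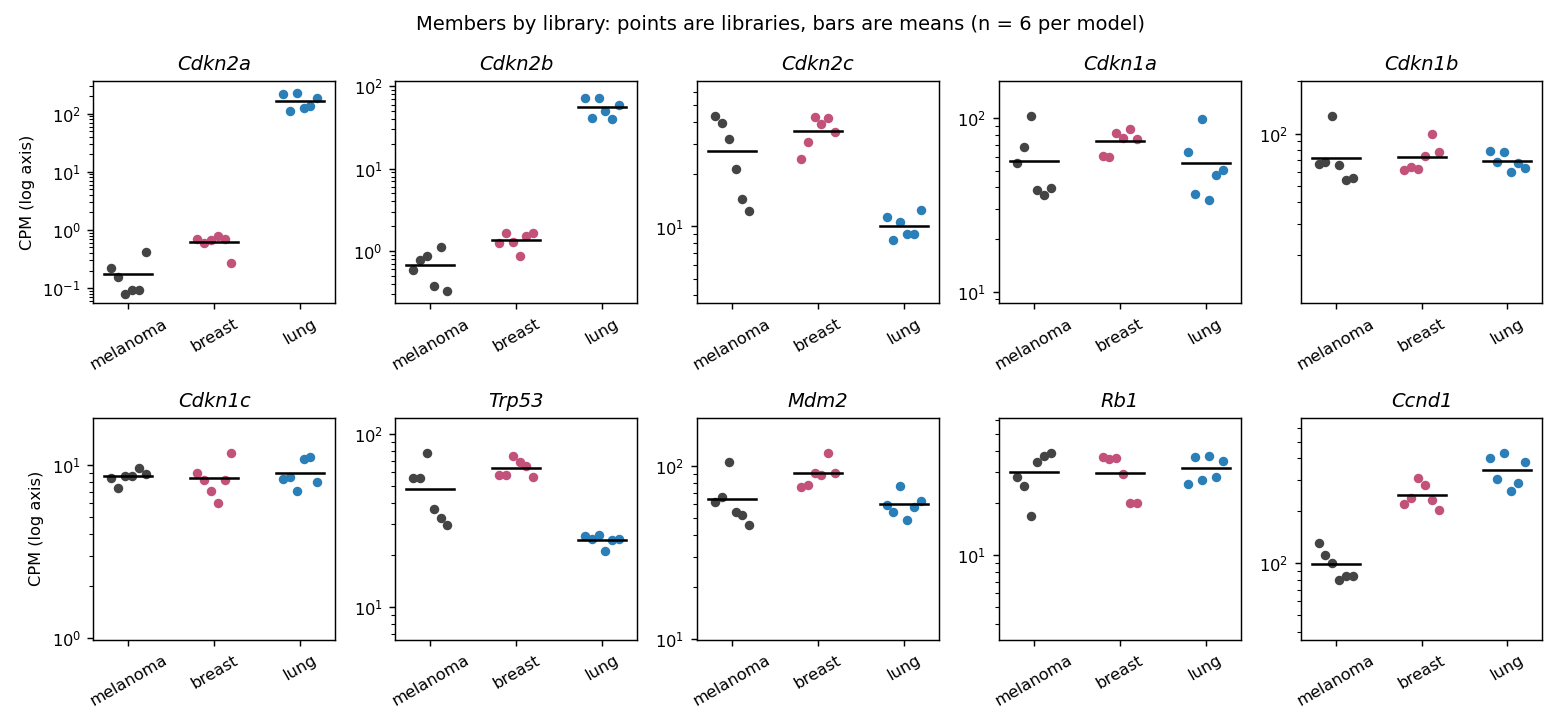
CPM of the 10 members (log axis) in each library of the melanoma, breast and lung models, with points for libraries and bars for means of 6. The lung points of Cdkn2a sit between 109 and 228 CPM, above all melanoma and breast points, which stay under 1 CPM.

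Cdkn2a, which encodes the Cdk4 and Cdk6 inhibitor p16Ink4a and the Mdm2 inhibitor Arf, was read almost wholly in the lung libraries. It had 1 to 5 reads in each melanoma library, 2 to 10 in each breast library and 1407 to 3372 in each lung library. The level was lowest at 0.0782, median 0.124 and highest 0.412 CPM in melanoma, lowest 0.273, median 0.685 and highest 0.787 CPM in breast, and lowest 109, median 162 and highest 228 CPM in lung. The lung range lay far above the other 2, which overlapped each other. The mean was 0.175 ± 0.128 CPM in melanoma, 0.623 ± 0.182 CPM in breast and 168 ± 50.2 CPM in lung (SD, n = 6 libraries each here and below). The log2 fold change was -9.80 ± 0.32 in melanoma against lung (SE here and below, adjusted p = 1.9e-13) and -8.01 ± 0.28 in breast against lung (adjusted p = 7.5e-13). In bulk tissue, fewer cells that express a gene and less RNA of it per cell cannot be told apart.

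Between melanoma and breast, Cdkn2a was compared at very low counts. Over the 6 libraries there were 13 reads in melanoma, or 0.178 CPM pooled (95% counting interval 0.0949 to 0.305), and 43 reads in breast, or 0.645 CPM (0.467 to 0.869). The fit over all 18 libraries gave a log2 fold change of -1.79 ± 0.42 (adjusted p = 0.0028 by edgeR), although 5 of the 6 melanoma libraries and 1 of the 6 breast libraries had 3 reads or fewer. Cdkn2a passed the filter on low counts only through the lung libraries, and in a fit of the 12 melanoma and breast libraries alone it was not tested. The levels in both models were at or near the floor, and no order between them is drawn from this call.

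Cdkn2b, the neighbouring gene, encodes p15Ink4b, an inhibitor of Cdk4 and Cdk6 that TGF-beta can induce. It stood lowest at 0.330, median 0.683 and highest 1.11 CPM in melanoma, lowest 0.866, median 1.403 and highest 1.65 CPM in breast, and lowest 40.2, median 54.7 and highest 72.4 CPM in lung. As for Cdkn2a, the lung libraries did not overlap with either other model. Its log2 fold change was -6.35 ± 0.26 in melanoma against lung (adjusted p = 4.07e-12) and -5.36 ± 0.25 in breast against lung (adjusted p = 1.73e-11). Between melanoma and breast it was compared at low counts. Each melanoma library had 4 to 12 Cdkn2b reads, the lowest near the floor, and each breast library 11 to 22. At these counts Cdkn2b was called lower in melanoma than in breast (-0.99 ± 0.29, adjusted p = 0.0122 by edgeR), with overlapping ranges. Without melanoma replicate 3 and breast replicates 18 and 19 this last difference missed the threshold (-0.92, adjusted p = 0.0532 by edgeR).

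Among the lung libraries the ratio of Cdkn2a to Cdkn2b reads was 2.49 to 3.43. Replicates 7 and 9 were highest for both genes, at 218 and 228 CPM of Cdkn2a and 71.3 and 72.4 CPM of Cdkn2b. The same replicates were highest for Krt18, a keratin of simple epithelia, at 517 and 588 CPM. Krt18 was lowest in replicate 10, at 113 CPM, where Cdkn2a was at 126 and Cdkn2b at 50.5 CPM. Cdkn2a was lowest in replicate 8, at 109 CPM, where Krt18 was at 342 CPM. The order of the lung libraries thus differed between the Ink4 genes and Krt18 below the top 2. Over 6 libraries, Krt18 averaged 1.89 ± 0.524 CPM in melanoma, 2.13 ± 0.989 CPM in breast and 358 ± 173 CPM in lung, and its part in the Ink4 result was not tested. The 4 fibroblast genes took 0.00513% to 0.0103% of reads in melanoma, 0.00815% to 0.0128% in breast and 0.0154% to 0.149% in lung, and their part was not tested either.

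**Figure D2:**
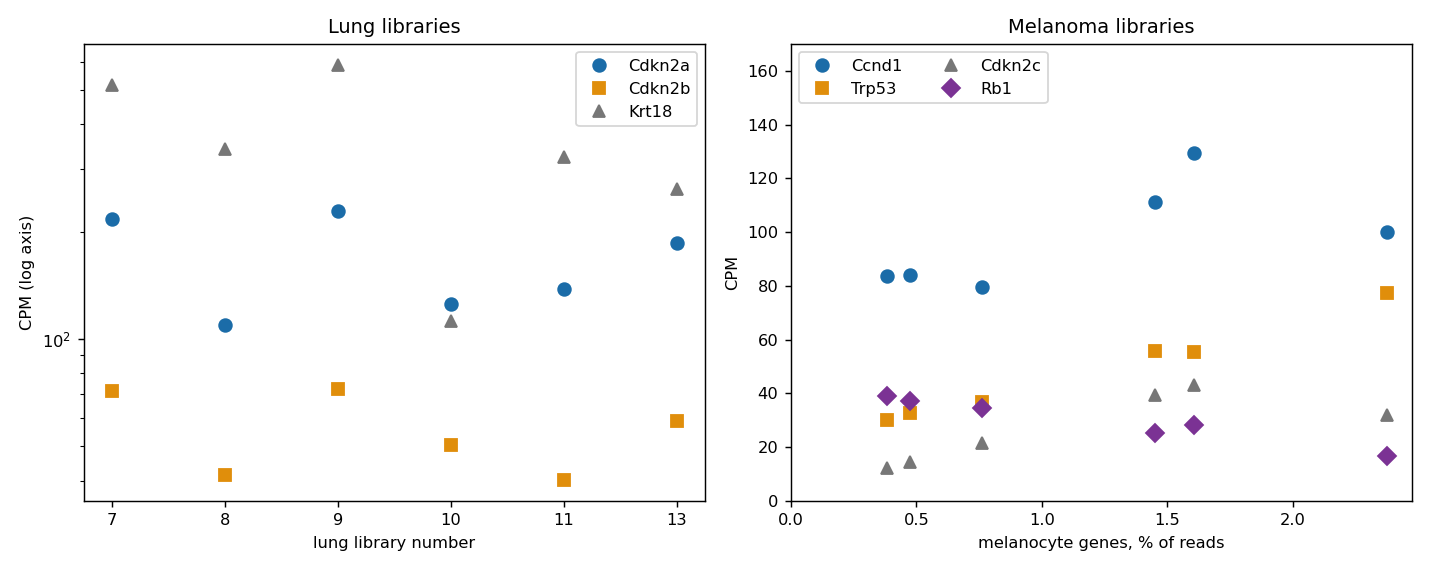
Left, CPM (log axis) of Cdkn2a, Cdkn2b and Krt18 in the 6 lung libraries by library number. Right, CPM of Ccnd1, Trp53, Cdkn2c and Rb1 in the 6 melanoma libraries against the percentage of reads from 8 melanocyte genes, where the 3 libraries under 1% have less Trp53 and Cdkn2c and more Rb1 than the 3 above it.

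No listed neighbour of the locus passed the test. Mtap, an enzyme of methionine salvage next to Cdkn2a, averaged 91.2 ± 57.6 CPM in melanoma, 89.7 ± 19.6 CPM in breast and 92.8 ± 23.2 CPM in lung. Of the 5 listed neighbours (Mtap, Dmrta1, Elavl2, Focad and Klhl9), 4 were tested, and none was called in any comparison, with log2 fold changes from -0.22 to 0.44. Dmrta1, a DM-domain gene, was not tested, with 25 reads in melanoma, 17 in breast and 28 in lung. The genes whose log2 CPM pattern over the 18 libraries was nearest to that of Cdkn2a were Apob, Ifi202b, Rps13-ps1 and Hnf4a. Their root mean square differences from Cdkn2a, after centring, were 0.607, 0.626, 0.751 and 0.856. Apob, the apolipoprotein of liver and gut lipoproteins, averaged 0.0519 CPM in melanoma, 0.456 CPM in breast and 72.1 CPM in lung. Cdkn2b ranked 21 on the same measure, at 1.51. Ccnd1 had a difference of 3.53 and Rb1 of 4.06.

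The 10 listed regulators of the Ink4 locus hold Polycomb components, known to repress it, and Kdm6b, a demethylase known to oppose them. Of these 3 were higher in melanoma than in lung, where 8.51% of all genes were, and 2 in breast than in lung, where 11.2% of all genes were. None was lower, where 14.7% of all genes were in melanoma against lung and 7.16% in breast against lung. The median log2 fold change was 0.20 and 0.37, against 0.02 and -0.02 over all genes tested. Suz12, a subunit of the repressive complex PRC2, averaged 88.3 ± 17.6 CPM in melanoma, 68.0 ± 8.29 CPM in breast and 53.1 ± 2.31 CPM in lung. It was higher than in lung in melanoma (log2 fold change 0.74 ± 0.12, adjusted p = 1.15e-04) and in breast (0.36 ± 0.12, adjusted p = 0.0468). Bmi1 is a subunit of PRC1 known to repress this locus in mouse. It averaged 85.4 ± 25.4 CPM in melanoma, 85.7 ± 15.5 CPM in breast and 53.2 ± 3.51 CPM in lung. Its log2 fold change was 0.68 ± 0.17 in melanoma against lung (adjusted p = 0.00427) and 0.69 ± 0.17 in breast against lung (adjusted p = 0.00587). Ezh2, the methyltransferase of PRC2, was also higher in melanoma than in lung (0.91 ± 0.30, adjusted p = 0.0361). In melanoma against breast, Suz12 was higher (0.38) and Eed, another PRC2 subunit, lower (-0.73, adjusted p = 0.00548).

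Cdkn2c, the p18Ink4c inhibitor of Cdk4 and Cdk6, went the other way from Cdkn2a and Cdkn2b. It stood lowest at 12.4, median 26.9 and highest 43.2 CPM in melanoma, lowest 24.5, median 37.0 and highest 43.0 CPM in breast, and lowest 8.31, median 9.83 and highest 12.4 CPM in lung. Breast and lung libraries did not overlap, and melanoma libraries overlapped with both. The log2 fold change was 1.43 ± 0.27 in melanoma against lung (adjusted p = 3.93e-04) and 1.82 ± 0.27 in breast against lung (adjusted p = 5.12e-05). Melanoma against breast did not pass (-0.39 ± 0.26, adjusted p = 0.263, 95% interval -0.90 to 0.11).

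The melanoma libraries differed widely in Cdkn2c. Replicates 1 to 3 had 43.2, 39.4 and 32.1 CPM, and 1.61%, 1.45% and 2.38% of their reads were from melanocyte genes. In replicates 4 to 6 it was at 21.6, 14.4 and 12.4 CPM, and melanocyte genes took 0.762%, 0.473% and 0.381%. The 3 libraries with more melanocyte RNA thus had more Cdkn2c than the other 3, and the part of tumour content was not tested. Cdkn2d, the other Ink4 inhibitor of Cdk4 and Cdk6, was not called in any comparison, at 50.6 ± 6.79 CPM in melanoma, 56.5 ± 7.82 CPM in breast and 47.5 ± 5.45 CPM in lung.

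No Cip/Kip inhibitor passed the test in any comparison. Cdkn1a, the p21 inhibitor and a p53 target, was lowest at 36.2, median 47.5 and highest 103 CPM in melanoma, lowest 59.9, median 76.2 and highest 86.3 CPM in breast, and lowest 33.8, median 48.9 and highest 98.7 CPM in lung. All 3 ranges overlapped, and in no comparison did Cdkn1a pass (log2 fold changes 0.04 ± 0.27 for melanoma and 0.42 ± 0.27 for breast, both against lung, and -0.37 ± 0.27 for melanoma against breast, adjusted p = 0.938, 0.337 and 0.313). The 95% intervals were -0.49 to 0.57, -0.11 to 0.95 and -0.90 to 0.16. The SD was 45.2% of the mean in melanoma, 15.2% in breast and 43.4% in lung. The highest melanoma library was replicate 3, whose slope with transcript length was -0.261, and the highest lung library was replicate 9, at -0.125. Lung replicate 7 had a like slope of -0.127 with 63.8 CPM of Cdkn1a, and the part of transcript length was not tested. In melanoma replicates 1 to 3 Cdkn1a was at 55.4, 68.0 and 103 CPM, and in replicates 4 to 6 at 38.5, 36.2 and 39.6 CPM. This was the same split as for melanocyte genes, whose part was not tested either.

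Cdkn1b, the p27 inhibitor that holds cells in quiescence, averaged 72.6 ± 26.6 CPM in melanoma, 73.4 ± 14.7 CPM in breast and 69.4 ± 7.80 CPM in lung. Melanoma replicate 3 was at 126 CPM, against 54.1 to 68.8 CPM in the other 5 melanoma libraries. Its log2 fold changes lay between -0.01 and 0.08, with 95% intervals inside -0.37 to 0.44. Cdkn1c, the imprinted p57 inhibitor, was the lowest of the 3 at 8.60 ± 0.724 CPM in melanoma, 8.38 ± 1.93 CPM in breast and 8.99 ± 1.62 CPM in lung. Its log2 fold changes were -0.06 ± 0.15, -0.11 ± 0.15 and 0.04 ± 0.15, none of which passed (adjusted p = 0.827, 0.698 and 0.855). Melanoma libraries were close together for Cdkn1c, with an SD of 8.42% of the mean. An antisense gene, Gm44732, overlaps an exon of Cdkn1c and had at most 2 reads in a library.

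**Figure D3:**
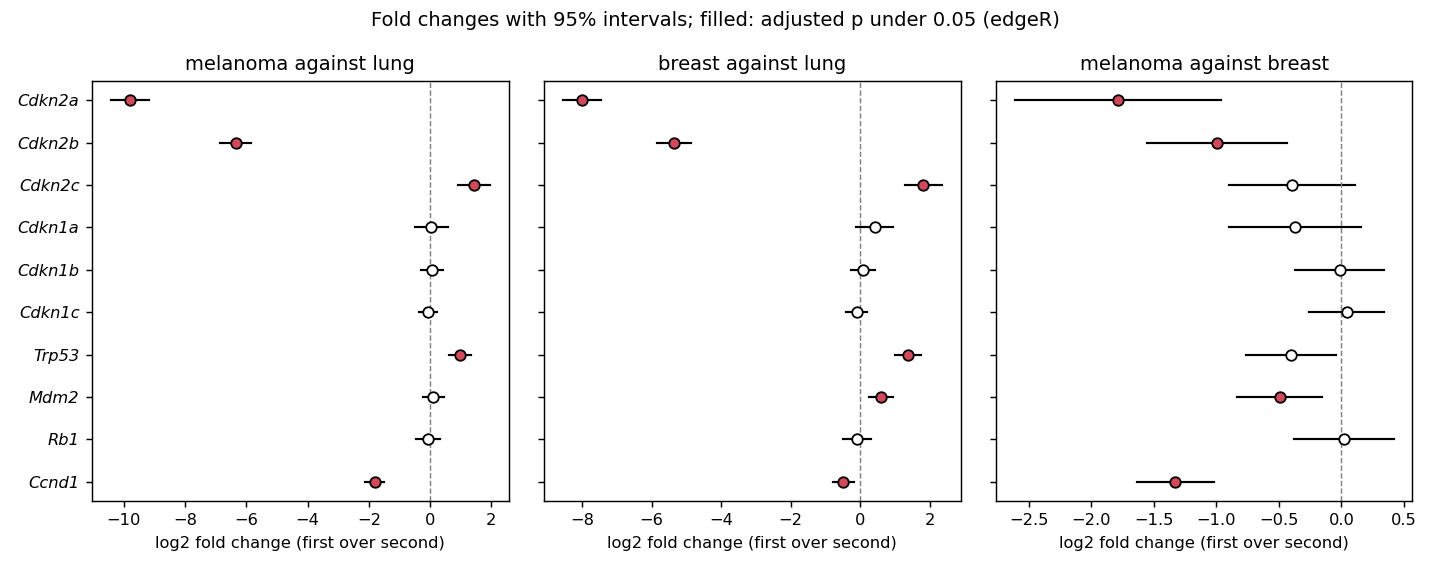
Log2 fold change of each member (x axis) in the 3 comparisons between models, with 95% intervals and filled points for an adjusted p under 0.05 (edgeR). Cdkn2a lies at -9.80 and -8.01 against lung, while Cdkn1b, Cdkn1c and Rb1 lie within 0.11 of 0 in all 3.

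Trp53, the gene of the p53 tumour suppressor, was higher in melanoma and in breast libraries than in lung. It stood lowest at 29.9, median 46.0 and highest 77.4 CPM in melanoma, lowest 56.6, median 61.4 and highest 74.1 CPM in breast, and lowest 21.0, median 24.7 and highest 25.9 CPM in lung. No lung library reached the level of any melanoma or breast library. This was a log2 fold change of 0.97 ± 0.19 in melanoma against lung (adjusted p = 5.31e-04) and 1.38 ± 0.19 in breast against lung (adjusted p = 2.25e-05). Melanoma against breast did not pass (-0.40 ± 0.18, adjusted p = 0.115), but did without melanoma replicate 3 (-0.54, adjusted p = 0.00813).

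In the melanoma libraries Trp53 was at 55.3, 55.9 and 77.4 CPM in replicates 1 to 3 and at 36.7, 32.5 and 29.9 CPM in replicates 4 to 6, the same split as for Cdkn2c and for melanocyte genes. Lung libraries were close together, with an SD of 7.32% of the mean. A processed pseudogene, Trp53-ps, whose reads may come from Trp53 transcripts, showed the same order, at 2.999 ± 1.002 CPM in melanoma, 4.69 ± 1.35 CPM in breast and 1.16 ± 0.337 CPM in lung. How the authors divided reads between them is not given in the sources used here.

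Mdm2, the ubiquitin ligase that degrades p53, was highest in the breast libraries. It stood lowest at 45.7, median 58.2 and highest 105 CPM in melanoma, lowest 75.8, median 89.7 and highest 119 CPM in breast, and lowest 48.8, median 58.8 and highest 76.3 CPM in lung. The breast range touched both others, by melanoma replicate 3 and by lung replicate 9. Its log2 fold change was 0.59 ± 0.17 in breast against lung (adjusted p = 0.0225) and -0.50 ± 0.17 in melanoma against breast (adjusted p = 0.0391), and 0.10 ± 0.17 in melanoma against lung (adjusted p = 0.766). Mdm2 was highest within its model in melanoma replicate 3 and breast replicate 18, which were poor in long transcripts. Melanoma replicates 1 to 3 had 61.8, 65.8 and 105 CPM of Mdm2, and replicates 4 to 6 had 54.6, 52.1 and 45.7 CPM. This was also the split seen for melanocyte genes, whose part was not tested. Without replicates 3, 18 and 19 both calls held, but without 1 library each the breast against lung call was lost in 5 of 18 fits and the melanoma against breast call in 10 of 18. The adjusted p then ran from 0.00422 to 0.101 and from 0.00121 to 0.179.

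The listed targets of p53 did not move in 1 direction. Of 30 listed targets other than Cdkn1a and Mdm2, 7 were higher and 7 lower in melanoma than in lung, and 8 were higher and 4 lower in breast than in lung. In melanoma against breast 4 were higher and 8 lower. Over all genes 8.51% were higher and 14.7% lower in melanoma against lung, 11.2% and 7.16% in breast against lung, and 9.76% and 19.2% in melanoma against breast. The median log2 fold changes were -0.07, 0.03 and 0.09, against 0.02, -0.02 and 0.04 over all genes tested. Perp, a desmosomal membrane protein of epithelia, was lower in both against lung (-2.09 ± 0.15, adjusted p = 2.19e-09, and -2.18 ± 0.15, adjusted p = 2.08e-09), at 6.38 ± 0.855 CPM in melanoma, 6.02 ± 1.23 CPM in breast and 27.1 ± 3.95 CPM in lung. Ccng2, an atypical cyclin, was also lower than in lung in melanoma (-0.78 ± 0.13, adjusted p = 1.21e-04 by edgeR) and in breast (-0.62 ± 0.13, adjusted p = 0.00165). Phlda3, an inhibitor of Akt, was lower in breast than in lung (-0.65 ± 0.14, adjusted p = 0.00318).

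Among the targets named by the size of their p, Pmaip1, Fas, Plk3 and Gdf15 had their highest mean in breast. Pmaip1, which encodes the BH3-only protein Noxa, averaged 2.22 ± 0.661 CPM in melanoma, 9.76 ± 1.399 CPM in breast and 5.37 ± 1.24 CPM in lung. It fell in melanoma against lung (log2 fold change -1.28, adjusted p = 6.38e-05) and against breast (-2.14, adjusted p = 1.11e-07), and was higher in breast than in lung (0.86, adjusted p = 0.00259). Fas, a death receptor, averaged 2.25 ± 0.516 CPM in melanoma, 13.4 ± 3.35 CPM in breast and 8.10 ± 3.01 CPM in lung, and was lower in melanoma than in lung (-1.84, adjusted p = 1.63e-05) and than in breast (-2.56, adjusted p = 2.74e-07). Plk3, a stress-responsive kinase, was at 10.0 ± 0.985 CPM in melanoma, 31.1 ± 5.29 CPM in breast and 13.7 ± 1.21 CPM in lung (breast against lung 1.18, adjusted p = 4.16e-07, and melanoma against breast -1.64, adjusted p = 4.88e-09). Gdf15, a secreted stress cytokine, was higher in breast than in lung, at 5.28 ± 1.07 against 0.467 ± 0.299 CPM (3.45 ± 0.46, adjusted p = 1.84e-05). It had 40 to 85 reads in each breast library but only 2 to 12 in each lung library. The size of this change thus rests on lung levels at or near the floor. The 6 T and NK cell genes took 0.000525% to 0.00220% of reads in melanoma, 0.00195% to 0.00503% in breast and 0.000793% to 0.00385% in lung, and their part was not tested.

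Psrc1, Sesn2, Gtse1, Trp53inp1 and Tigar had theirs in melanoma. Psrc1, which encodes a microtubule-associated protein, averaged 50.4 ± 25.1 CPM in melanoma, 6.00 ± 0.928 CPM in breast and 7.41 ± 1.43 CPM in lung. The log2 fold change was 2.76 ± 0.28 against lung (adjusted p = 3.26e-07) and 3.06 ± 0.29 against breast (adjusted p = 1.03e-07). In melanoma replicates 1 to 3 it was at 68.6, 64.1 and 84.2 CPM and in replicates 4 to 6 at 34.8, 27.0 and 23.8 CPM, again the order of melanocyte RNA. Sesn2, a sestrin that restrains mTORC1, was at 25.5 ± 5.92 CPM in melanoma, 22.8 ± 5.47 CPM in breast and 13.8 ± 0.358 CPM in lung. It was higher than in lung in melanoma (0.89, adjusted p = 3.9e-04) and in breast (0.725, adjusted p = 0.00359 by edgeR). Gtse1, a G2 and M phase regulator of p53, was also higher than in lung in melanoma (1.09 ± 0.28, adjusted p = 0.00715) and in breast (0.87 ± 0.28, adjusted p = 0.0396 by edgeR). Trp53inp1 (0.77) and Tigar (0.32), which act in autophagy and in glycolysis, were higher in melanoma than in breast (adjusted p = 1.08e-04 and 0.0123).

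Of 17 listed p53 regulators, 2 were higher in melanoma than in lung and 3 in breast than in lung, with none lower. In melanoma against breast 1 was higher and 3 lower. Apart from none being lower against lung, these counts are near the shares over all genes. Those were 8.51% higher and 14.7% lower in melanoma against lung and 11.2% higher and 7.16% lower in breast against lung. In melanoma against breast they were 9.76% higher and 19.2% lower. Chek1, the checkpoint kinase of replication stress, averaged 16.8 ± 12.1 CPM in melanoma, 17.9 ± 4.62 CPM in breast and 4.70 ± 1.03 CPM in lung. Its log2 fold change was 1.84 ± 0.38 in melanoma against lung (adjusted p = 0.0011) and 1.92 ± 0.38 in breast against lung (adjusted p = 0.00114). Ppm1d, a phosphatase that dampens p53, was higher than in lung in both (0.35, adjusted p = 0.0321, and 0.39, adjusted p = 0.0246), and Atr, the kinase that activates Chek1, was higher in breast than in lung (0.66, adjusted p = 0.00485). Cop1, a ubiquitin ligase of p53, was higher in melanoma than in breast (0.33, adjusted p = 0.0197), and Kat5, an acetyltransferase of p53, Rchy1, another ligase, and Atr were lower there (-0.39, -0.52 and -0.42). Mdm4, the partner of Mdm2, was not called in any comparison, at 52.7 ± 5.13 CPM in melanoma, 42.7 ± 9.72 CPM in breast and 48.7 ± 7.06 CPM in lung.

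Rb1, the retinoblastoma protein gene, did not pass in any comparison. It stood lowest at 16.8, median 31.3 and highest 38.8 CPM in melanoma, lowest 19.9, median 32.5 and highest 36.6 CPM in breast, and lowest 25.8, median 31.5 and highest 37.1 CPM in lung. The log2 fold changes were -0.07 ± 0.20, -0.09 ± 0.20 and 0.02 ± 0.20 (adjusted p = 0.855, 0.812 and 0.957), with 95% intervals inside -0.49 to 0.42. The lowest values were melanoma replicate 3 (16.8 CPM) and breast replicates 18 and 19 (19.96 and 19.9 CPM), the libraries poor in long transcripts, and the part of transcript length was not tested. The longest annotated transcript has 4656 bases for Rb1 and 4552 bases for Cdkn1b, which was highest of its model in melanoma replicate 3 and breast replicate 18. Without these 3 libraries the log2 fold change of Rb1 was 0.06 against lung for both models, and neither passed. Lpar6, a lipid receptor gene inside Rb1 on the other strand, shares 408 exon bases with it and was lower in melanoma than in lung (-1.46 ± 0.19, adjusted p = 7.8e-06).

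Of the 17 listed Rb and E2F complex genes 16 were tested. None was higher and 2 were lower in melanoma than in lung, 6 were higher and none lower in breast than in lung, and in melanoma against breast 5 were lower. Over all genes 8.51% were higher and 14.7% lower in melanoma than in lung, and 11.2% higher and 7.16% lower in breast than in lung. In melanoma against breast 19.2% were lower. E2f8 and E2f7, atypical E2F repressors, and Mybl2, a subunit of the mitotic MuvB complex, led the breast rises over lung (1.88 ± 0.31, 1.66 ± 0.32 and 1.66 ± 0.35, adjusted p = 1.63e-04, 9.77e-04 and 0.00186). E2f4, the E2F that forms repressor complexes with Rb family proteins in quiescent cells, averaged 32.3 ± 4.56 CPM in melanoma, 64.0 ± 10.2 CPM in breast and 44.6 ± 7.25 CPM in lung. It was lower in melanoma than in lung (-0.47 ± 0.13, adjusted p = 0.0129) and than in breast (-0.99 ± 0.13, adjusted p = 8.52e-06). Lin37, another MuvB subunit, was lower in melanoma than in lung (-0.36, adjusted p = 0.047). The Rb1 relatives Rbl1 and Rbl2 were not called in any comparison.

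Ccnd1, which encodes cyclin D1, was graded across the models and lowest in melanoma. It stood lowest at 79.7, median 92.0 and highest 130 CPM in melanoma, lowest 201, median 233 and highest 307 CPM in breast, and lowest 259, median 341 and highest 430 CPM in lung. All melanoma libraries lay below all others, while breast and lung overlapped. This was a log2 fold change of -1.81 ± 0.16 in melanoma against lung (adjusted p = 6.26e-08) and -1.33 ± 0.16 in melanoma against breast (adjusted p = 2.11e-06). In breast against lung it was -0.48 ± 0.15 (adjusted p = 0.0362 by edgeR), and this call was lost in 6 of the 18 fits without 1 library (adjusted p 0.0173 to 0.0863). In melanoma replicates 1 to 3 Ccnd1 was at 130, 111 and 100 CPM, and in replicates 4 to 6 at 79.7, 84.0 and 83.5 CPM. The melanoma libraries with more melanocyte RNA thus had somewhat more Ccnd1, and all 6 stayed below the lowest breast library.

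Ccnd1 shares 1100 exon bases with LTO1 on the other strand, which stood at 19.3 ± 2.09 CPM in melanoma, 18.1 ± 1.201 CPM in breast and 19.8 ± 1.29 CPM in lung and was not called. The genes nearest to Ccnd1 in pattern over the 18 libraries were Fam129b, Gm8276, Zdhhc12 and Hbegf, with root mean square differences of 0.176, 0.183, 0.210 and 0.221 on the log2 scale. Hbegf, an EGF receptor ligand, averaged 14.1 CPM in melanoma, 34.8 CPM in breast and 59.5 CPM in lung. Astrocyte genes took 0.101% to 0.131% of reads in melanoma, 0.276% to 0.316% in breast and 0.259% to 0.443% in lung. Microglial genes took 0.0272% to 0.0403%, 0.0759% to 0.114% and 0.0827% to 0.120%. Both lists were lower in every melanoma library than in any other, as was Ccnd1, and their part in the Ccnd1 result was not tested. Among lung libraries Ccnd1 was highest in replicates 9, 7 and 13, at 430, 401 and 380 CPM. The same libraries were highest, in the same order, for Cdkn2a (228, 218 and 186 CPM) and Cdkn2b (72.4, 71.3 and 58.9 CPM). Ccnd1 was lowest in replicate 10 (259 CPM) and Cdkn2a in replicate 8 (109 CPM), and a shared source was not tested.

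The other D cyclins did not follow Ccnd1. Ccnd2, the cyclin D2 gene, averaged 157 ± 48.4 CPM in melanoma, 117 ± 21.6 CPM in breast and 75.6 ± 9.26 CPM in lung, and was higher than in lung in melanoma (1.05 ± 0.18, adjusted p = 1.72e-04) and in breast (0.63 ± 0.18, adjusted p = 0.0181). Melanoma replicates 1 to 3 had 194, 183 and 217 CPM of Ccnd2 and replicates 4 to 6 had 135, 106 and 103 CPM, the split seen for melanocyte genes, whose part was not tested. Ccnd3, the cyclin D3 gene, was at 71.8 ± 26.2 CPM in melanoma, 66.6 ± 8.81 CPM in breast and 54.5 ± 11.3 CPM in lung and was not called. Of the kinases that D cyclins activate, Cdk6 was lower in melanoma, at 6.40 ± 2.29 CPM, against 24.6 ± 8.12 CPM in breast (-1.94 ± 0.26, adjusted p = 8.63e-06) and 27.4 ± 6.996 CPM in lung (-2.10 ± 0.26, adjusted p = 4.44e-06). Cdk4 was not called, at 212 ± 133 CPM in melanoma, 201 ± 63.1 CPM in breast and 152 ± 39.9 CPM in lung.

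Cdk2, the partner of cyclins E and A, was far higher in melanoma. It averaged 285 ± 151 CPM in melanoma, 26.9 ± 6.15 CPM in breast and 16.2 ± 4.46 CPM in lung (melanoma against lung 4.14 ± 0.35, adjusted p = 2.76e-08, and against breast 3.41 ± 0.33, adjusted p = 1.91e-07). Cdk2 shares 34 exon bases with Pmel, the melanosome gene on the other strand. In melanoma replicates 1 to 6 Cdk2 was at 405, 378, 469, 212, 128 and 120 CPM, where Pmel was at 3953, 3142, 4766, 1583, 1070 and 808 CPM, so both had the same order of libraries. The libraries were directional, but whether the counting used strand is not given in the sources used here, and the part of Pmel reads in Cdk2 was not tested.

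**Figure D4:**
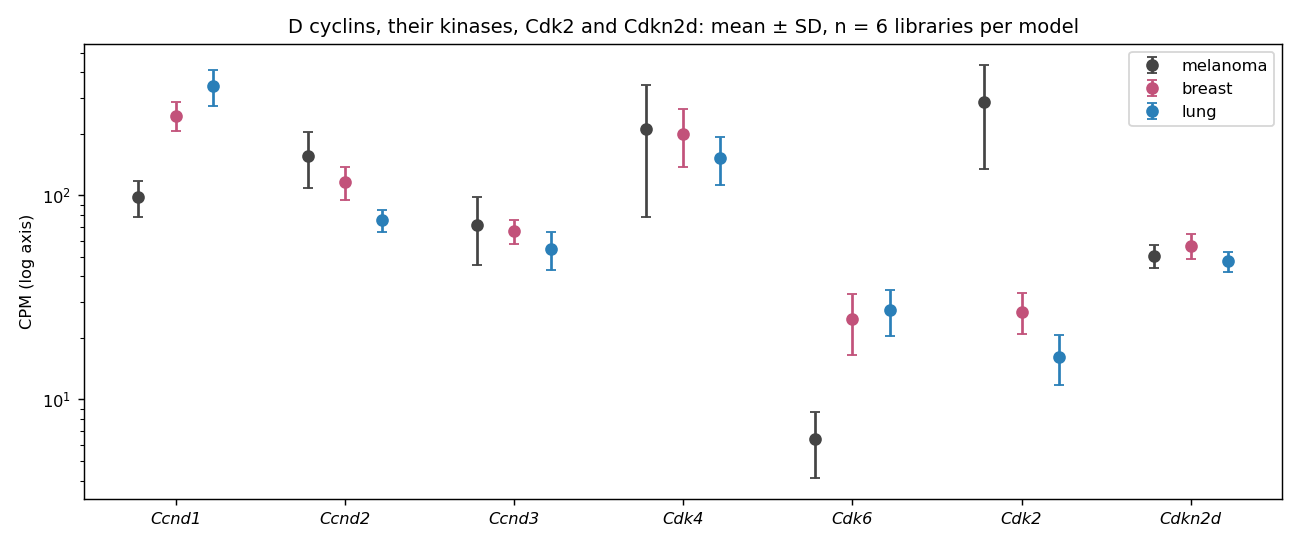
Mean CPM ± SD (log axis, n = 6 libraries per model) of the D cyclins, Cdk4, Cdk6, Cdk2 and the inhibitor Cdkn2d in melanoma, breast and lung libraries. Ccnd1 and Cdk6 are lowest and Ccnd2 and Cdk2 highest in melanoma, while Cdk4 and Cdkn2d passed no test.

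Of the 16 listed G1 cyclins and kinases, 3 were higher and 1 lower in melanoma than in lung, 1 was higher in breast than in lung, and 2 were higher and 2 lower in melanoma than in breast. Cdk2, with its overlap with Pmel, is among those higher in melanoma. Over all genes 8.51% were higher and 14.7% lower in melanoma than in lung, 11.2% higher in breast than in lung, and 9.76% higher and 19.2% lower in melanoma than in breast. Cdc25a, a phosphatase that activates Cdk2, was higher in melanoma than in lung (1.15 ± 0.23, adjusted p = 7.95e-04) and than in breast (0.65, adjusted p = 0.0374), and Cks1b, a Cdk-binding subunit of the p27 ligase, was lower in melanoma than in breast (-1.69 ± 0.42, adjusted p = 0.00454). Of the 20 listed S phase targets of E2F 19 were tested. Against lung 7 were higher in melanoma and 7 in breast, with none lower. Over all genes 8.51% and 11.2% were higher there, and 14.7% and 7.16% lower. In melanoma against breast 1 was higher (Mcm2) and 1 lower (Gins2). The median log2 fold change of the S phase targets was 0.77, 0.64 and -0.22 in the 3 comparisons, against 0.02, -0.02 and 0.04 over all genes tested. Rrm2, a ribonucleotide reductase subunit, averaged 135 ± 88.4 CPM in melanoma against 38.1 ± 12.1 CPM in lung (1.83 ± 0.38, adjusted p = 0.00106). Cdc6, a licensing factor, was higher in melanoma than in lung (1.34 ± 0.32, adjusted p = 0.00404) and in breast than in lung (1.61 ± 0.32, adjusted p = 0.00127). Pola1, a DNA polymerase subunit, and Mcm7, of the replicative helicase, were also higher in breast than in lung (1.2 and 1.19, adjusted p = 0.00138 and 0.00783).

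Of 15 G2 and M phase genes, 2 were higher in melanoma than in lung (Cenpf, 0.97, and Aurkb, 1.19). In breast 4 were higher than in lung, among them Cenpf (0.997) and Aurkb (1.32). Over all genes 8.51% and 11.2% were higher there. None of the 15 was lower against lung, where 14.7% and 7.16% of all genes were. In melanoma against breast 1 was lower, where 19.2% of all genes were. The median log2 fold change of the 15 was 0.77, 0.75 and -0.03 in the 3 comparisons. Over all genes tested it was 0.02, -0.02 and 0.04. The lowest of the 15 against lung was 0.195 in melanoma and 0.087 in breast. The gene lower in melanoma than in breast was Cdc20, an activator of the anaphase complex, at 24.5 ± 15.5 CPM in melanoma, 61.6 ± 16.6 CPM in breast and 21.4 ± 7.20 CPM in lung (-1.32 ± 0.35, adjusted p = 0.00642). Mki67, a marker of dividing cells, was not called in any comparison, at 67.3 ± 43.4 CPM in melanoma, 52.2 ± 22.6 CPM in breast and 33.5 ± 7.72 CPM in lung. Against lung the log2 fold change of Mki67 was 1.01 in melanoma and 0.645 in breast (adjusted p = 0.0605 and 0.272 by edgeR). Mki67 was lowest within its model in melanoma replicate 3 (25.2 CPM), breast replicate 19 (24.1 CPM) and lung replicate 11 (23.9 CPM). Melanoma replicate 3 and breast replicate 19 were poor in long transcripts, and the part of transcript length was not tested.

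**Figure D5:**
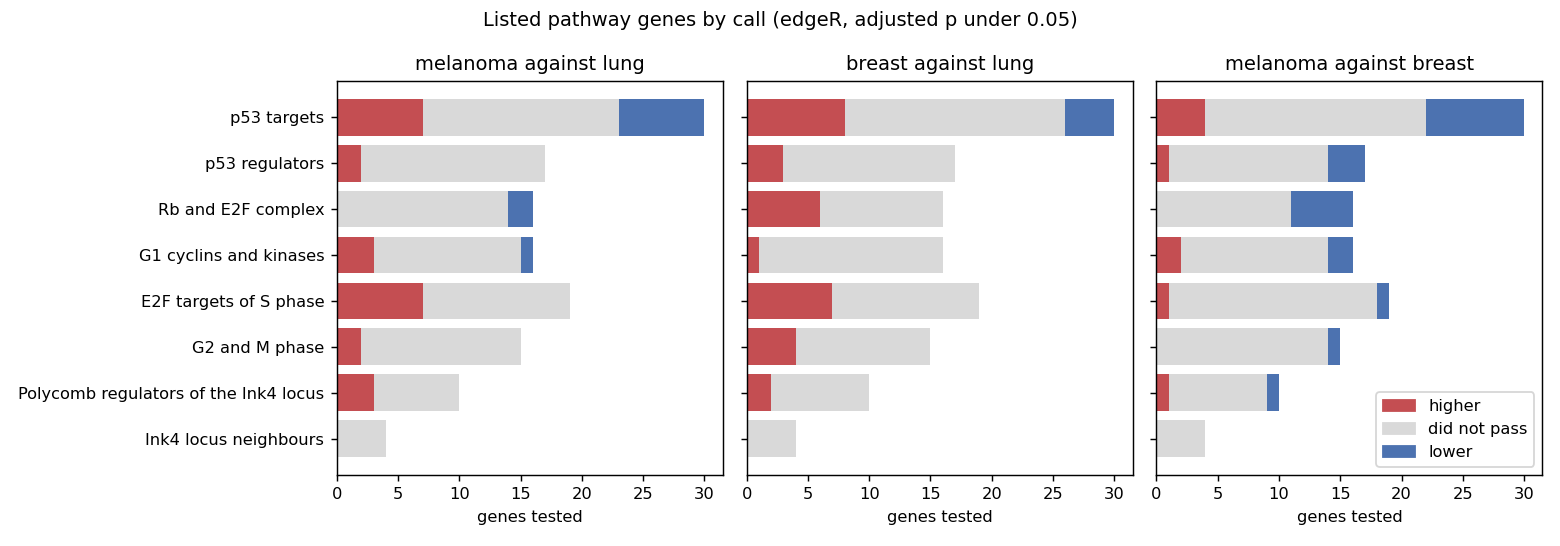
Genes tested in 8 pathway lists by call in each comparison (edgeR, adjusted p under 0.05): higher on the left, did not pass in the middle, lower on the right. Of 30 p53 targets 7 were higher and 7 lower in melanoma against lung, while of 19 S phase genes 7 were higher and none lower.

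The members can also be ranked within a model by level per kilobase of longest annotated transcript. In melanoma Cdkn1a (27.3 CPM per kilobase) and Ccnd1 (26.2) stood at the top, followed by Mdm2 (20.4), Cdkn1b (15.96) and Trp53 (14.6). In breast the order was Ccnd1 (65.7), Cdkn1a (35.4), Mdm2 (28.8), Trp53 (19.3) and Cdkn1b (16.1). In lung Cdkn2a was the highest at 187 CPM per kilobase, followed by Ccnd1 (91.9), Cdkn2b (40.2), Cdkn1a (26.5) and Mdm2 (19.1), and Trp53 was at 7.45. Cdkn1c (4.52, 4.41 and 4.73 in melanoma, breast and lung) and Rb1 (6.47, 6.37 and 6.80) were low in all 3 models. The annotation gives lengths on another build than the counts, so these ranks hold only as far as the gene models are alike. They also hold only for the longest transcript. All annotated exons together span 3553 bases for Cdkn1a and 4709 for Ccnd1, against 2080 and 3740 in the longest transcript.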

How the data were processed

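Directional libraries (NEBNext Ultra II) were made from poly(A)+ RNA of 18 brains, per the labels' protocols. The submitters' processing notes name bcl2fastq and the build GRCm39. How reads were aligned and counted, and with which annotation and strand setting, is not given in the sources used here. Whole-number raw counts per Ensembl gene were deposited for all libraries. A deposited CPM table, scaled by the authors, covers 16925 genes by upper-case symbol, and 100% of its values were whole multiples of 1 read (tolerance 0.01). edgeR on these recovered reads called 3469, 2719 and 4448 genes, against 3978, 3148 and 4966 on the counts. No row of the CPM table matched Cdkn2a. Symbols (94.0% of IDs, 99.8% of reads) and lengths came from GENCODE M21 (GRCm38) by gene ID. Between libraries of a model, chi-square over its degrees of freedom was at least 2.68, above sampling noise.

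Counts were fitted with edgeR 4.0.16 in R 4.3.3 (robust quasi-likelihood, TMM, filterByExpr, 1 coefficient per model, all 18 libraries), and called at an adjusted p under 0.05. CPM in the text use TMM-scaled library sizes. The labels give 6 brains per model. The members and lists were chosen with earlier results of these data known. Named genes were all members, up to 3 called genes each way per list and comparison, and the 4 nearest in pattern (log2 of CPM plus 0.1, mean of at least 1 CPM) to Cdkn2a and Ccnd1. Pmel, Krt18 and Mki67 were given as levels. Mtap, Cdkn2d, Mdm4, Rbl1, Rbl2, Ccnd3, Cdk4, Dmrta1, LTO1, Lpar6 and Trp53-ps were named in addition, with their values known. Alternatives used other scalings, filters, tests (DESeq2 1.42.0, limma 3.58.1) and libraries.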

Additional observations from a re-analysis of the deposited data

Results flagged for a closer look

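In 30 groups of 6 libraries (10 genes in 3 models), 5 held a library whose gap to its nearest neighbour was over 0.625 of the group's range, and chance gives this in about 1 of 20 groups. Melanoma replicate 3 stood apart at 126 CPM of Cdkn1b and 105 CPM of Mdm2, and breast replicate 18 at 119 CPM of Mdm2. Both libraries were poor in long transcripts, and whether this bears on these values was not tested. Trp53 was at 21.0 CPM in lung replicate 10, the lowest of its model. Cdkn2a was at 0.273 CPM in breast replicate 19, which is 2 reads.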

How the results depend on the processing

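Of 833 refits of the 30 member fold changes, 765 kept direction and side of the threshold, 30 lost a call, 2 gained a call and 36 changed sign. All sign changes were in 10 results of at most 0.10 on the log2 scale that had not passed. Without melanoma 3, breast 18 and breast 19 (libraries poor in long transcripts), melanoma against lung was -0.20 for Cdkn1a, -0.15 for Cdkn1b, -0.0921 for Mdm2 and 0.0561 for Rb1, breast against lung was -0.14 for Cdkn1b and 0.0624 for Rb1, and melanoma against breast was -0.00627 for Rb1. Cdkn1b in melanoma against breast was 0.028 with DESeq2 size factors, 0.0013 with library totals, 0.035 with no filter, 0.028 with DESeq2 and 0.032 on reads recovered from the deposited CPM, and Rb1 was -0.014 with limma voom. Ccnd1 in breast against lung missed the threshold with no filter, on the deposited CPM and without the 3 libraries (adjusted p = 0.0682, 0.0547 and 0.0661). Mdm2 in melanoma against breast missed it with DESeq2 size factors, no filter, DESeq2, the recovered reads and the 12 libraries compared (0.0738, 0.0929, 0.0583, 0.0794 and 0.0799). The cause was not tested. Members called in melanoma against breast were 2 with only the 12 libraries compared and 2 on the recovered reads (an alternative chosen after seeing the data), against 4. In both Mdm2 missed the threshold and Cdkn2a was not tested, failing the low-count filter without lung libraries and matching no gene of the CPM table.

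Leaving out 1 library, genes called were 3495 to 4623 in melanoma against lung, 2575 to 4114 in breast against lung and 4520 to 8078 in melanoma against breast (8078 without melanoma replicate 3). Members called were 5 to 5, 5 to 6 and 3 to 5. In melanoma against lung the fold changes ran from -0.202 to 0.291 for Cdkn1a, -0.152 to 0.182 for Cdkn1b, -0.124 to 0.0201 for Cdkn1c, -0.0918 to 0.228 for Mdm2 and -0.149 to 0.0566 for Rb1. In breast against lung Cdkn1b ran from -0.0716 to 0.124. In melanoma against breast they ran from -0.198 to 0.156 for Cdkn1b, -0.0372 to 0.216 for Cdkn1c and -0.0106 to 0.193 for Rb1. No paired analysis was possible because the models share no replicate numbers. At 1 to 5 reads a library, the depth does not resolve Cdkn2a in melanoma.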
